A study of Homo sapiens with 9 samples.

Results

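The collagen genes were described across PC3 xenografts that had been given vehicle or an antibody-drug conjugate. They were chosen by symbol alone, as every gene named COL, a type number, A and a chain number that was present in both deposited count tables. This gave 40 of the 16008 genes common to the tables. Every gene listed in a table had at least 5 counts in 2 or more of its libraries, so being listed itself depends on level. Collagen genes COL9A1, COL19A1, COL22A1 and COL26A1 were not listed and were not analysed here. By class the 40 were 11 fibrillar genes, 6 of basement membrane type IV, 5 of beaded filament type VI, 7 of the fibril-associated collagens with interrupted triple helices (FACIT), 2 multiplexins, 4 transmembrane collagens and 5 short chain and other collagens.

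PC3 is a human prostate cancer cell line established from a bone metastasis. Per the labels, PC3 cells in PBS and Matrigel were placed under the flank skin of male NSG mice aged 11 weeks. Treatment began at a tumor volume of 90 mm3 and was given weekly by the retro-orbital route for 5 cycles, as PBS alone or as 5 mg/kg of P-DXd (patritumab deruxtecan, against HER3) or T-DXd (trastuzumab deruxtecan, against HER2), which carry the same topoisomerase I inhibitor. The study's methods give some of these settings differently for the experiment with both conjugates. Each group had 3 tumors, 1 library each, taken at the endpoint. Sample titles and treatment fields name opposite conjugates for the 6 treated libraries, so groups follow the titles and are called PBS, P-DXd-titled and T-DXd-titled. All 6 treated libraries were also compared with PBS, which does not depend on that conflict. NSG mice lack mature T, B and natural killer cells but keep fibroblasts, vessels and macrophages. The counts are of human genes, and the sources do not state whether reads of mouse origin were removed. In bulk tumor RNA, fewer cells of a type and less RNA per cell cannot be told apart.

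Collagens are trimers of alpha chains, each encoded by its own gene. Fibrillar types I, III and V assemble into the banded fibrils of connective tissue, with type I built mostly from COL1A1 and COL1A2 and type V regulating how fibrils start. Type IV forms the sheet of basement membranes, type VI forms beaded microfilaments beside it, and type VII anchors epithelial basement membranes to the fibrils below. FACIT collagens coat fibrils, multiplexins XV and XVIII are proteoglycans of basement membrane zones, and the transmembrane collagens sit on the cell surface, type XVII in the hemidesmosomes of epithelial cells. Fibroblasts are the usual source of fibrillar collagen in tumors, whereas types VII and XVII are typical of epithelial cells.

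The libraries held 54481702 to 125538606 counts, with the 3 PBS libraries the deepest. Counts on the 40 collagen genes made up 0.353% to 0.482% of a library. Levels are CPM, a gene's counts out of every 1000000 counts, on library sizes scaled by the trimmed mean of M values (TMM), and levels of different genes are compared only as CPM per kilobase of the gene's canonical transcript. PBS replicate 1 stood apart. Of 26 collagens with a PBS mean of at least 1 CPM, it held 4 at under 0.5 of the level in each other PBS library (COL6A1, COL6A2, COL8A1 and COL13A1). It held another 4 at over 1.5 times that level (COL1A1, COL1A2, COL3A1 and COL17A1). Values without it are given where leaving it out changed a call over all treated libraries and beside other calls that rest on it.

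Over all treated libraries against PBS, 8 collagens were higher and 7 were lower of the 38 tested, with 23 not called. A gene was called at an adjusted p of at most 0.05 in edgeR's quasi-likelihood test and a fold change of at least 1.5. Of all 15070 genes tested, 14.8% were called higher and 17.1% lower. The counts of collagens are to be read against these shares. The median log2 fold change was 0.11 over the collagens and -0.018 over all genes tested. PBS and treated libraries did not overlap for 14 collagens, 6 higher and 8 lower, and for 50.6% of all genes. COL20A1 (type XX, a FACIT) and COL25A1 (type XXV, transmembrane) were too low to test. Their treated means were 0.0427 and 0.0553 CPM.

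In P-DXd-titled xenografts 3 collagens were higher and 6 lower of 36 tested, beside 11.2% and 13.8% of all genes. This split was 7 higher and 7 lower under DESeq2 and in a single fit of the 9 libraries, and 6 higher and 7 lower when PBS replicate 1 was left out. In T-DXd-titled xenografts 7 were higher and 7 lower of 37 tested, beside 13.1% and 15.5%. COL5A2 and COL18A1 were called higher in both, and COL4A6, COL6A3, COL7A1, COL17A1, COL21A1 and COL27A1 were called lower in both. The comparisons share their PBS libraries. A call against PBS in 1 conjugate and not in the other does not show a difference between conjugates, and in that direct comparison no collagen was called.

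**Figure D1:**
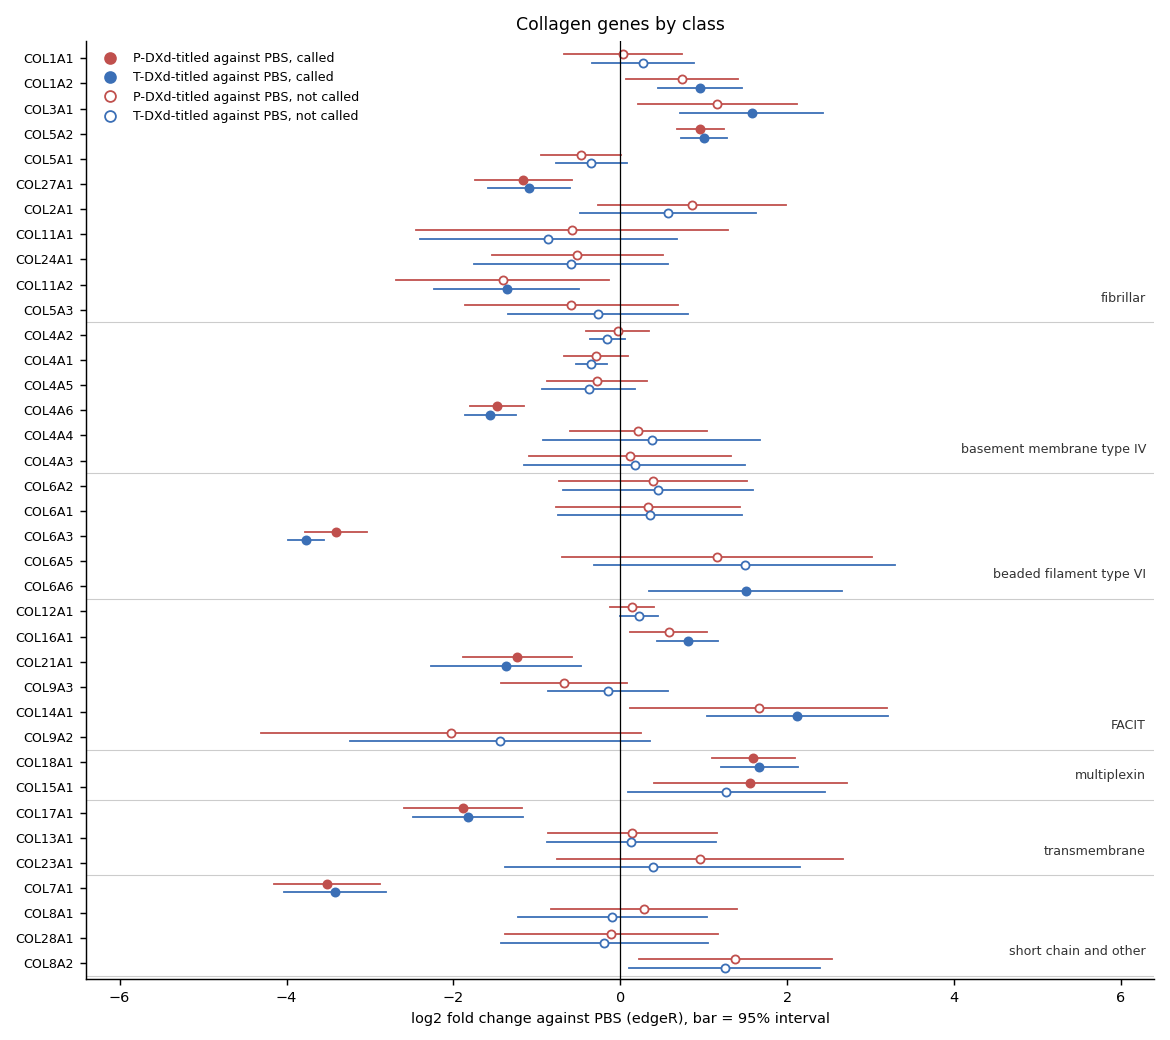
Log2 fold change against PBS of each collagen tested (x axis), by class and within a class from the highest mean CPM per kilobase down, for P-DXd-titled (red) and T-DXd-titled (blue) xenografts. Bars are 95% intervals, and filled points were called. COL6A3 and COL7A1 lie below -3, COL4A6 lies near -1.5, and COL4A1, COL4A2, COL6A1 and COL6A2 lie within 0.5 of 0.

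The fibrillar class did not move as a block. Of its 11 genes, COL1A2, COL3A1 and COL5A2 were higher over all treated libraries, COL11A2 and COL27A1 were lower, and 6 were not called. The class median was -0.41 on the log2 fold change scale. COL1A1, the pro-alpha1 chain of type I and the collagen of highest CPM per kilobase in the series, read 1399, 791 and 699 CPM in the PBS libraries. It read 711, 1160 and 1106 CPM under the P-DXd title and 1174, 1125 and 1242 CPM under the T-DXd title. The groups overlapped and PBS replicate 1 held the highest value of all 9 libraries. Its log2 fold change over all treated libraries was 0.14 (SE 0.23, adjusted p = 0.615), with a 95% interval from -0.37 to 0.65. Leaving out PBS replicate 1 raised it to 0.53 (adjusted p = 0.0109), which missed the fold change minimum, and to 0.65 in T-DXd-titled xenografts, where it was then called higher.

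COL1A2, the partner chain of type I, rose. It read 422, 260 and 261 CPM in PBS libraries, 343, 657 and 585 CPM under the P-DXd title and 633, 545 and 674 CPM under the T-DXd title. P-DXd-titled replicate 1 lay below PBS replicate 1, and the other 5 treated libraries lay above all PBS libraries. On the log2 scale the fold change was 0.84 over all treated libraries (SE 0.23, adjusted p = 0.0121), 0.95 in T-DXd-titled (adjusted p = 0.0121) and 0.74 in P-DXd-titled xenografts, where it was not called (adjusted p = 0.0830). The call over all treated libraries was lost without PBS replicate 2 (0.71, adjusted p = 0.0532), and that in T-DXd-titled xenografts without T-DXd-titled replicate 3 (0.89, adjusted p = 0.0533). In P-DXd-titled xenografts it was gained without PBS replicate 1 (1.01, adjusted p = 0.00906) and without P-DXd-titled replicate 1 (0.97, adjusted p = 0.0458).

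COL3A1, the sole chain of type III, rose more than COL1A2. Its PBS libraries read 176, 69.0 and 76.1 CPM. The P-DXd-titled libraries read 154, 284 and 285 CPM and the T-DXd-titled libraries 315, 368 and 288 CPM. Here too P-DXd-titled replicate 1 fell below PBS replicate 1 and all other treated libraries were above the PBS range. This amounted to a log2 fold change of 1.36 over all treated libraries (SE 0.33, adjusted p = 0.00669) and 1.57 in T-DXd-titled xenografts (adjusted p = 0.0140). In P-DXd-titled xenografts it was 1.16 and not called (adjusted p = 0.0622), but called without PBS replicate 1 (1.73, adjusted p = 0.000994). The T-DXd-titled call was lost without T-DXd-titled replicate 2 (1.47, adjusted p = 0.0511).

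COL5A2, a chain of type V, moved with little scatter. It read 84.2, 69.8 and 64.9 CPM in PBS libraries. Treated libraries read 145, 144 and 139 CPM under the P-DXd title and 143, 150 and 152 CPM under the T-DXd title. No treated library fell within the PBS range. The means were 73.0 ± 10 CPM for PBS (SD, n = 3) and 145 ± 4.78 CPM for treated libraries (SD, n = 6), and the log2 fold change was 0.97 (SE 0.09, adjusted p = 4.6e-05). COL5A1, the partner chain, read 80.1, 136 and 124 CPM in PBS libraries. It read 69.4, 89.5 and 88.1 CPM under the P-DXd title and 91.3, 88.8 and 90.2 CPM under the T-DXd title. Its log2 fold change of -0.41 had an adjusted p of 0.0390 but missed the fold change minimum, and leaving out PBS replicate 1 gave -0.60 and a call of lower. COL5A3, a minor type V chain, averaged 0.579 CPM in PBS and 0.435 CPM in treated libraries and was not called.

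Among fibrillar collagens of cartilage and of minor fibrils, COL27A1 fell from 6.89, 9.14 and 6.66 CPM in PBS libraries to 2.60, 4.23 and 3.36 CPM under the P-DXd title and 4.27, 3.08 and 3.41 CPM under the T-DXd title. All 6 treated values were below the PBS range. COL27A1, the type XXVII chain, had a log2 fold change of -1.14 (SE 0.19, adjusted p = 0.000927). The P-DXd-titled call on COL27A1 was lost without P-DXd-titled replicate 3 (-1.15, adjusted p = 0.0594). COL11A2, a type XI chain, read 0.98, 1.53 and 0.74 CPM in PBS, 0.19, 0.72 and 0.34 CPM under the P-DXd title and 0.41, 0.35 and 0.52 CPM under the T-DXd title. Its groups were separated by a narrow margin, between 0.72 and 0.74 CPM. Its log2 fold change was -1.39 over all treated libraries (SE 0.40, adjusted p = 0.0151), -1.36 in T-DXd-titled and -1.41, not called, in P-DXd-titled xenografts. COL11A2 lost its call over all treated libraries without PBS replicate 2 (-1.06, adjusted p = 0.0871). The T-DXd-titled call on it was lost without PBS replicate 2 and without each T-DXd-titled library, at adjusted p values from 0.0587 to 0.0934. Leaving out P-DXd-titled replicate 2 brought a call there too (-2.05, adjusted p = 0.0452). COL2A1, the chain of cartilage type II, COL11A1 and COL24A1 were low, with treated means of 1.72, 0.796 and 0.691 CPM, and were not called. COL2A1 was called higher over all treated libraries without PBS replicate 3 (1.23, adjusted p = 0.0219).

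**Figure D2:**
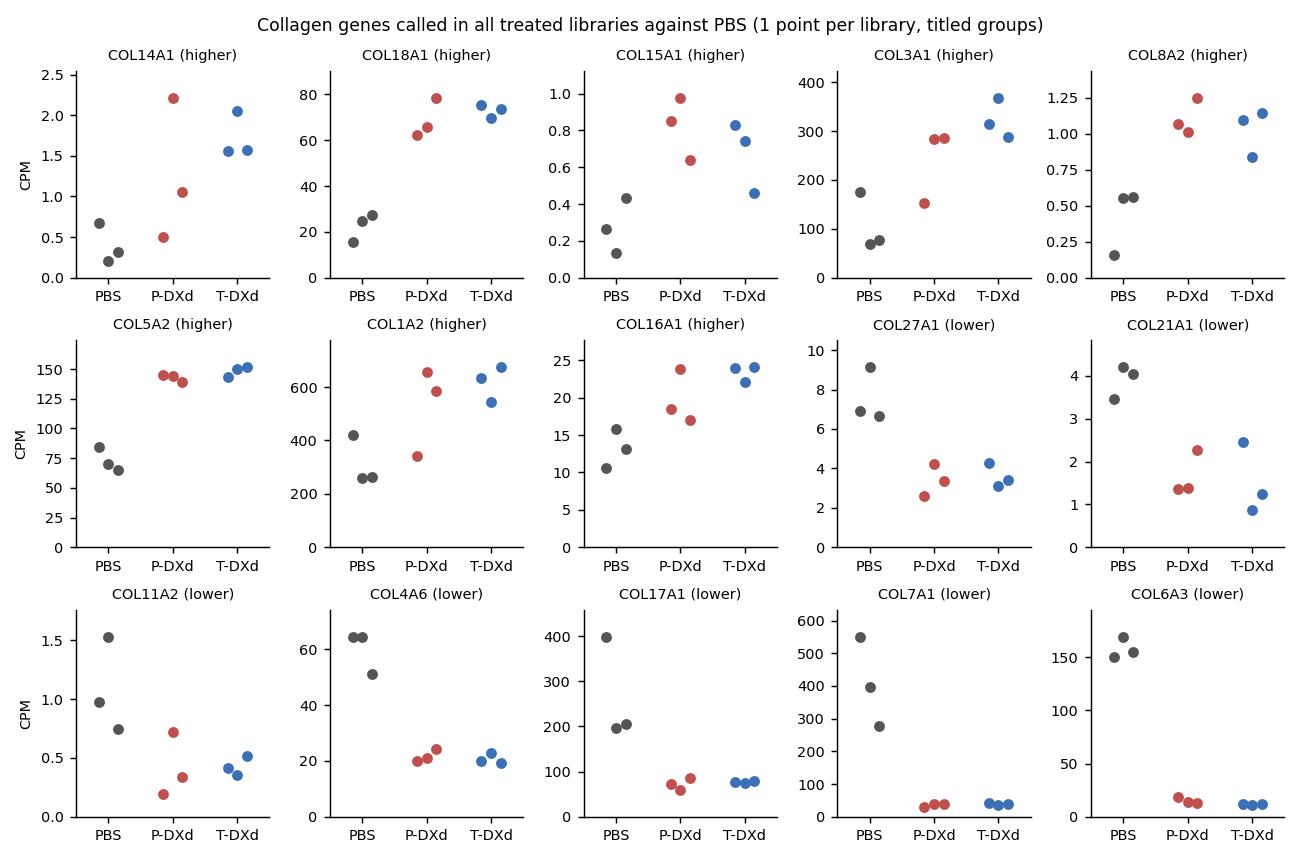
CPM (y axis, from 0, a scale of its own in each panel) of the 15 collagens called over all treated libraries against PBS, with 1 point per library by titled group (x axis). The 8 higher genes come first and the 7 lower genes after them. For COL1A2, COL3A1 and COL14A1 the first P-DXd-titled library lies within the PBS range, whereas COL4A6, COL6A3, COL7A1 and COL17A1 show a wide gap between PBS and all treated libraries.

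Of type IV only COL4A6 was called over all treated libraries, and it fell. The 6 type IV genes lie in head-to-head pairs, COL4A1 with COL4A2 on chromosome 13, COL4A4 with COL4A3 on chromosome 2 and COL4A6 with COL4A5 on chromosome X. The pairs start from neighbouring promoters on opposite strands. The windows below, from 250 bases before to 50 bases after a gene's start, are shown because COL4A6 fell while its neighbour COL4A5 was not called. They were taken from RefSeq on GRCh38.p14, a build other than that of the count tables, and are written in the gene's own direction with 4 motifs in capitals on either strand, which are the CCAAT box, the GC box GGGCGG, the TATA box TATAAA and the AP-1 motif TGANTCA. In RefSeq 127 bases separate the starts of COL4A1 and COL4A2, and 380 bases those of COL4A5 and the nearer COL4A6 transcript.
COL4A2 (chr13:110307034-110307333, plus strand): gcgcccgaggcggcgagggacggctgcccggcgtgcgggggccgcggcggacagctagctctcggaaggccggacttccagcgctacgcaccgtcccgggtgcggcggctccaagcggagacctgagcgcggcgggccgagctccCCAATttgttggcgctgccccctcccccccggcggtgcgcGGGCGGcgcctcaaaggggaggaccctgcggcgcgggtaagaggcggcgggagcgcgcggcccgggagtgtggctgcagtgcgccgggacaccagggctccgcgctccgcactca
COL4A5 (chrX:108439588-108439887, plus strand): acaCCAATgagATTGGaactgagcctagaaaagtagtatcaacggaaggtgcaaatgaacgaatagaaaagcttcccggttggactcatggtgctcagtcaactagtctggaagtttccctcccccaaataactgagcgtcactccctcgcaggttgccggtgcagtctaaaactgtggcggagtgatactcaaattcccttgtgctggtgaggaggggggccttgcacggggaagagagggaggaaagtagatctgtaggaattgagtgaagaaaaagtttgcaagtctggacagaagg
COL4A6 (chrX:108439409-108439708, minus strand): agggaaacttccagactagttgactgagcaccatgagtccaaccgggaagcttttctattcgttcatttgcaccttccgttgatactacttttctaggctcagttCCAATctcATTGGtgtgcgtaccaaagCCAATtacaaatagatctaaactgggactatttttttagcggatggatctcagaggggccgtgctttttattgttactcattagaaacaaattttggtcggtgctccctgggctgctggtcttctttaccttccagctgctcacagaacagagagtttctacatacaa
The COL4A2 window shares 226 bases with that of COL4A1 and is 77.7% G or C. Those of COL4A5 and COL4A6 share 121 bases and are 49.3% and 43.7% G or C. CCAAT, the CCAAT box, was found in all 3 windows, beside 34.6% of all 35116 promoter windows in the table. No GGGCGG was found in the windows of COL4A5 and COL4A6 printed here. A second COL4A6 start in RefSeq, 1416 bases from that of COL4A5, has a window that shares no bases with it and holds GGGCGG once and no CCAAT.

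COL4A1 and COL4A2, which form the basement membrane network of nearly all tissues, were the highest type IV genes. COL4A2 led the class by CPM per kilobase and read 405, 464 and 447 CPM in PBS, 335, 508 and 452 CPM under the P-DXd title and 410, 373 and 414 CPM under the T-DXd title. The groups overlapped, and the log2 fold change was -0.10 with a 95% interval from -0.37 to 0.17. COL4A1 read 259, 276 and 259 CPM in PBS, 164, 254 and 233 CPM under the P-DXd title and 214, 202 and 217 CPM under the T-DXd title. All treated values were below the PBS range. The log2 fold change of -0.33 (SE 0.12, adjusted p = 0.0431) missed the fold change minimum, so COL4A1 was not called. The listed spans of COL4A1 and COL4A2 overlap by 1338 bases, and reads there may not be assigned to 1 of the genes.

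COL4A6, whose chain is found with that of COL4A5 in some epithelial and smooth muscle basement membranes, fell in every treated library. It read 64.4, 64.5 and 51.1 CPM in PBS, 20.0, 21.0 and 24.1 CPM under the P-DXd title and 19.8, 22.9 and 19.3 CPM under the T-DXd title. The highest treated value was less than the lowest PBS value, and treated libraries were 2.88-fold lower in the fit. This was a log2 fold change of -1.52 (SE 0.10, adjusted p = 9.52e-06), with -1.47 under the P-DXd title and -1.56 under the T-DXd title. COL4A5 read 100, 199 and 185 CPM in PBS, 114, 130 and 158 CPM under the P-DXd title and 134, 123 and 119 CPM under the T-DXd title. Its groups overlapped through PBS replicate 1, the lowest library of all. COL4A5 had a log2 fold change of -0.34 (SE 0.19, adjusted p = 0.159), with a 95% interval from -0.76 to 0.09. Leaving out PBS replicate 1 made it called lower in T-DXd-titled xenografts (-0.63, adjusted p = 3.49e-06). COL4A6 overlaps the span of ATG4A as listed. COL4A3 and COL4A4, the chains of kidney glomerular basement membrane, reached at most 0.75 and 1.11 CPM in any library, with treated means of 0.499 and 0.684 CPM, and were not called.

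Type VI held the widest split among chains of 1 collagen. A type VI monomer is built from COL6A1, COL6A2 and a longer chain, most often COL6A3. COL6A2, the type VI gene of highest CPM per kilobase, read 122, 483 and 566 CPM in PBS, 482, 483 and 574 CPM under the P-DXd title and 533, 521 and 565 CPM under the T-DXd title. COL6A1 read 139, 556 and 596 CPM in PBS, 503, 497 and 630 CPM under the P-DXd title and 553, 535 and 579 CPM under the T-DXd title. Apart from PBS replicate 1, all libraries lay close together for both genes. The log2 fold changes were 0.42 for COL6A2 (SE 0.36, adjusted p = 0.356) and 0.34 for COL6A1 (SE 0.36, adjusted p = 0.446), with 95% intervals reaching 1.23 and 1.13. When PBS replicate 1 was left out these were 0.00011 for COL6A2 (adjusted p = 0.999) and -0.075 for COL6A1 (adjusted p = 0.506).

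COL6A3 fell 12.1-fold in the fit, while its partners were not called. Its PBS libraries read 150, 169 and 155 CPM. The P-DXd-titled libraries read 18.2, 13.7 and 12.99 CPM and the T-DXd-titled libraries 12.1, 11.3 and 11.9 CPM. All 6 treated libraries were far under the PBS range, and PBS replicate 1, low for COL6A1 and COL6A2, was not low for COL6A3. The log2 fold change over all treated libraries was -3.60 (SE 0.10, adjusted p = 2.62e-07). The gene is listed on chromosome 2 from 238232646 to 238323018 on the tables' own build. COL6A5, a chain that can stand in for COL6A3, read from 0.03 to 0.59 CPM in PBS and from 0.76 to 1.24 CPM in treated libraries, without overlap. Its log2 fold change of 1.32 was not called (SE 0.61, adjusted p = 0.0928), and leaving out PBS replicate 1 gave 0.80 and a call of higher (adjusted p = 0.0380). COL6A6, the other such chain, read 0.07, 0.08 and 0.04 CPM in PBS, 0.04, 0.11 and 0.18 CPM under the P-DXd title and 0.15, 0.24 and 0.15 CPM under the T-DXd title. At this level it was called higher in T-DXd-titled xenografts (1.5, adjusted p = 0.0447), a call lost without each of the 6 libraries of that comparison (adjusted p from 0.0734 to 0.176). Over all treated libraries it was not called (1.12, adjusted p = 0.115), except without P-DXd-titled replicate 1 (1.35, adjusted p = 0.0453).

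COL7A1 and COL17A1, which link epithelial cells to the matrix beneath them, fell together. COL7A1, the sole chain of anchoring fibrils, read 551, 398 and 279 CPM in PBS, 30.0, 40.4 and 37.6 CPM under the P-DXd title and 42.5, 35.4 and 38.1 CPM under the T-DXd title. The PBS libraries scattered, at 409 ± 136 CPM (SD, n = 3), but the lowest of them was above every treated library, at 37.3 ± 4.34 CPM (SD, n = 6). The log2 fold change was -3.48 (SE 0.19, adjusted p = 4.95e-06), or 11.1-fold lower. COL17A1, the transmembrane collagen of hemidesmosomes, read 398, 197 and 205 CPM in PBS, 73.5, 59.2 and 85.9 CPM under the P-DXd title and 76.9, 74.3 and 78.1 CPM under the T-DXd title. No treated library reached the PBS range. Its log2 fold change was -1.86 (SE 0.21, adjusted p = 0.000116), and -1.44 without PBS replicate 1, which held the highest COL17A1 level. COL7A1 is listed on chromosome 3 from 48601506 to 48632700, and COL17A1 on chromosome 10 from 105791044 to 105845760, on the tables' build.

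The promoter windows of the 3 genes with the largest falls in log2 fold change among collagens, COL6A3 and COL7A1 with COL17A1, are shown for comparison with those of type IV, in the same notation and from the same RefSeq table.
COL6A3 (chr2:237414115-237414414, minus strand): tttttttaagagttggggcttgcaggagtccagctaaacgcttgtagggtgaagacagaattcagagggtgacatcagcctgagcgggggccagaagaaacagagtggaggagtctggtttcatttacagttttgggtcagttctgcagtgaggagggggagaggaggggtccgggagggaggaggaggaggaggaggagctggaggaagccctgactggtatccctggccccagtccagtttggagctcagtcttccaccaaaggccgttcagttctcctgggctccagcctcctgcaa
COL7A1 (chr3:48595280-48595579, minus strand): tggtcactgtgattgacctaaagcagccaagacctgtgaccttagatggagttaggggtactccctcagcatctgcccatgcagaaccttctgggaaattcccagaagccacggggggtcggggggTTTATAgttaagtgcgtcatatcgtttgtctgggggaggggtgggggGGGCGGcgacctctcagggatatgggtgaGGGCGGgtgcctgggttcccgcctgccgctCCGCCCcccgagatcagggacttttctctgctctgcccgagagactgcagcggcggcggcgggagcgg
COL17A1 (chr10:104085831-104086130, minus strand): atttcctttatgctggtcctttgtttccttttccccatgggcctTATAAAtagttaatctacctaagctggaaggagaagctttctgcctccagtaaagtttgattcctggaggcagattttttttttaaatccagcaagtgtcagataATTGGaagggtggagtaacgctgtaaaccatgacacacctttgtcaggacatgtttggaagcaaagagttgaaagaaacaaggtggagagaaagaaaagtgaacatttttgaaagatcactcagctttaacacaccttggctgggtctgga
By these letters no motif was in all 3 windows, and COL7A1 and COL17A1 shared TATAAA. COL6A3 held none of the 4 motifs, COL7A1 held GGGCGG, the GC box, at 3 places and TATAAA, the TATA box, once, and COL17A1 held TATAAA once and CCAAT once. TATAAA stands in 11.5% of all promoter windows and GGGCGG in 45.0%. TGANTCA, the AP-1 motif, was in none of the windows printed here and in 7.71% of all windows. Windows were found for 29 of the 40 collagens, 40 windows in all, since some genes have several starts. Over these 40 windows GGGCGG was present in 60%, CCAAT in 32.5%, TATAAA in 20.0% and TGANTCA in 2.5%. None of the 4 motifs is part of another, and a match is a description of the letters alone.

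Both multiplexins were higher over all treated libraries. COL18A1, whose C-terminal part is released as endostatin, read 15.8, 24.9 and 27.4 CPM in PBS, 62.2, 65.7 and 78.6 CPM under the P-DXd title and 75.2, 69.9 and 73.4 CPM under the T-DXd title. Every treated library was more than 2-fold above the highest PBS library. The log2 fold change was 1.62 (SE 0.17, adjusted p = 6.35e-05), or 3.08-fold. The listed span of COL18A1 overlaps SLC19A1. COL15A1 was present at a trace level, at 0.27, 0.13 and 0.43 CPM in PBS, 0.85, 0.98 and 0.64 CPM under the P-DXd title and 0.83, 0.74 and 0.46 CPM under the T-DXd title. Its groups did not overlap, though the highest PBS and lowest treated values were 0.43 and 0.46 CPM. COL15A1 had a log2 fold change of 1.41 over all treated libraries (SE 0.41, adjusted p = 0.0170), 1.56 in P-DXd-titled (adjusted p = 0.0456) and 1.27, not called, in T-DXd-titled xenografts (adjusted p = 0.0785). The first was lost without PBS replicate 2 (1.06, adjusted p = 0.0567). The P-DXd-titled call was lost without PBS replicate 1 or 2 and without each P-DXd-titled library, at adjusted p values from 0.0537 to 0.124. COL15A1 was called in T-DXd-titled xenografts without PBS replicate 3 (1.76, adjusted p = 0.0385).

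Of 7 FACIT collagens 6 were tested, with 2 higher, 1 lower and 3 not called. COL12A1, which binds type I fibrils and had the highest CPM per kilobase of the class, read 149, 125 and 144 CPM in PBS, 169, 145 and 148 CPM under the P-DXd title and 174, 162 and 158 CPM under the T-DXd title. Its groups overlapped, and the log2 fold change was 0.17 with a 95% interval from -0.02 to 0.37. COL16A1, a FACIT of fibrils and basement membrane zones, read 10.6, 15.8 and 13.2 CPM in PBS. It read 18.5, 23.9 and 17.0 CPM under the P-DXd title and 23.9, 22.2 and 24.1 CPM under the T-DXd title. All treated values were above the PBS range. COL16A1 had a log2 fold change of 0.69 (SE 0.15, adjusted p = 0.00366), 0.81 in T-DXd-titled (adjusted p = 0.00726) and 0.58, not called, in P-DXd-titled xenografts (adjusted p = 0.0555). Without PBS replicate 1 the value of 0.56 over all treated libraries fell below the fold change minimum.

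COL14A1, which coats fibrils in fibroblast-rich tissue, read 0.67, 0.21 and 0.31 CPM in PBS, 0.50, 2.22 and 1.05 CPM under the P-DXd title and 1.56, 2.06 and 1.58 CPM under the T-DXd title. P-DXd-titled replicate 1 lay within the PBS range and P-DXd-titled replicate 2 was the highest library. COL14A1 had a log2 fold change of 1.88 (SE 0.52, adjusted p = 0.0133), 2.12 in T-DXd-titled (adjusted p = 0.0112) and 1.66, not called, in P-DXd-titled xenografts (adjusted p = 0.0876). Over all treated libraries it was 2.49 without PBS replicate 1, and not called without PBS replicate 2 (1.56, adjusted p = 0.0527). In P-DXd-titled xenografts leaving out PBS replicate 1 gave 2.25 for COL14A1, which was then called (adjusted p = 0.0220), and leaving out P-DXd-titled replicate 2 gave 0.98 (adjusted p = 0.295). COL21A1, a FACIT of vessel walls, fell from 3.47, 4.2 and 4.05 CPM in PBS to 1.35, 1.38 and 2.26 CPM under the P-DXd title and 2.46, 0.88 and 1.24 CPM under the T-DXd title. No treated library of COL21A1 reached the PBS range, and the log2 fold change was -1.31 (SE 0.31, adjusted p = 0.00558). The P-DXd-titled call on COL21A1 was lost without PBS replicate 2 and without replicate 1 or 2 of the treated group (adjusted p from 0.0546 to 0.0570). That in T-DXd-titled xenografts was lost without PBS replicate 2 and without replicate 2 or 3 of the treated group (adjusted p from 0.0692 to 0.100). COL9A2 and COL9A3, chains of cartilage type IX, had treated means of 0.138 and 0.820 CPM and were not called. COL9A2 was called lower over all treated libraries without PBS replicate 3 (-2.24, adjusted p = 0.0118) or P-DXd-titled replicate 3 (-2.39, adjusted p = 0.0200), and in T-DXd-titled xenografts without PBS replicate 3 (-1.94, adjusted p = 0.0209).

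The network-forming type VIII chains of vessel and corneal membranes differed in their change. COL8A1 read 19.6, 71.7 and 94.9 CPM in PBS, with PBS replicate 1 the lowest of all libraries. It read 73.9, 71.3 and 81.9 CPM under the P-DXd title and 57.1, 58.5 and 60.4 CPM under the T-DXd title. Its log2 fold change over all treated libraries was 0.09 with a 95% interval from -0.71 to 0.89. Leaving out PBS replicate 1 turned it to -0.33 (adjusted p = 0.0122), which missed the fold change minimum. COL8A2 read 0.16, 0.55 and 0.56 CPM in PBS, 1.07, 1.02 and 1.25 CPM under the P-DXd title and 1.09, 0.84 and 1.15 CPM under the T-DXd title. The treated libraries of COL8A2 were all above the PBS range, with a log2 fold change of 1.31 (SE 0.39, adjusted p = 0.0176). It was called in neither conjugate alone (1.38 and 1.25, adjusted p = 0.0652 and 0.0742), but in both without PBS replicate 1 (1.00 and 0.87, adjusted p = 0.0443 and 0.0388). COL10A1, a network-forming chain of hypertrophic cartilage, and COL28A1, a type VI-like collagen, had treated means of 0.0907 and 0.860 CPM and were not called. Of the transmembrane class, COL13A1, a collagen of cell adhesion sites, averaged 42.1 ± 23.4 CPM in PBS (SD, n = 3) and 46.6 ± 3.89 CPM in treated libraries (SD, n = 6) and was not called. The COL13A1 log2 fold change of 0.13 turned to -0.26 (adjusted p = 0.0260) when PBS replicate 1 was left out and stayed uncalled. COL23A1 averaged 0.126 and 0.20 CPM and was not called.

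Chosen pairs of chains that enter the same collagen were compared as a ratio of counts within a library, which removes scaling between libraries. Such a ratio can still differ with the mix of cells and with any reads of mouse origin, which were not separated here. The 7 pairs leave out some chains of shared types. COL4A3 with COL4A4, COL9A2 with COL9A3 and COL11A1 with COL11A2, all low in level, were not compared. For COL1A1 over COL1A2 the ratio was 3.32, 3.05 and 2.68 in PBS, 2.07, 1.76 and 1.89 under the P-DXd title and 1.86, 2.07 and 1.84 under the T-DXd title. The lowest PBS ratio was above the highest treated ratio, although PBS replicate 1 stood far from the other PBS libraries in the level of both chains. The geometric mean fell from 3.0 to 1.91. A two-sided exact permutation test over the 84 divisions of the 9 libraries gave p = 0.0238, the smallest this design allows, and 0.0278 after Benjamini-Hochberg adjustment over the 7 pairs.

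COL6A3 over COL6A1 was 1.08, 0.304 and 0.260 in PBS and between 0.0206 and 0.0361 in treated libraries, and the log2 ratio differed by -4.19. COL5A1 over COL5A2 was 0.951, 1.95 and 1.90 in PBS and between 0.479 and 0.638 in treated libraries, a difference of -1.37 on the log2 scale. COL4A5 over COL4A6 was 1.55, 3.09 and 3.63 in PBS and between 5.39 and 6.76 in treated libraries, a difference of 1.24. In each of these pairs the treated libraries lay on 1 side of the PBS range, and PBS replicate 1 stood apart from the other PBS libraries. COL8A1 over COL8A2 ranged from 122 to 169 in PBS and from 52.0 to 69.6 in treated libraries, a log2 difference of -1.15. COL4A1 over COL4A2 ranged from 0.579 to 0.639 in PBS and from 0.489 to 0.541 in treated libraries, a log2 difference of -0.23. These 5 pairs had the same exact p of 0.0238 in the permutation test, adjusted to 0.0278. COL6A1 over COL6A2, from 1.05 to 1.15 in PBS and 1.02 to 1.1 in treated libraries, overlapped (log2 difference -0.10, exact permutation p = 0.0476, adjusted 0.0476), and without each of 5 of the treated libraries its adjusted p was 0.0714. Of the levels of the 15070 single genes tested 50.6% did not overlap between treated and PBS libraries, and how often ratios of other gene pairs do so was not computed.

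**Figure D3:**
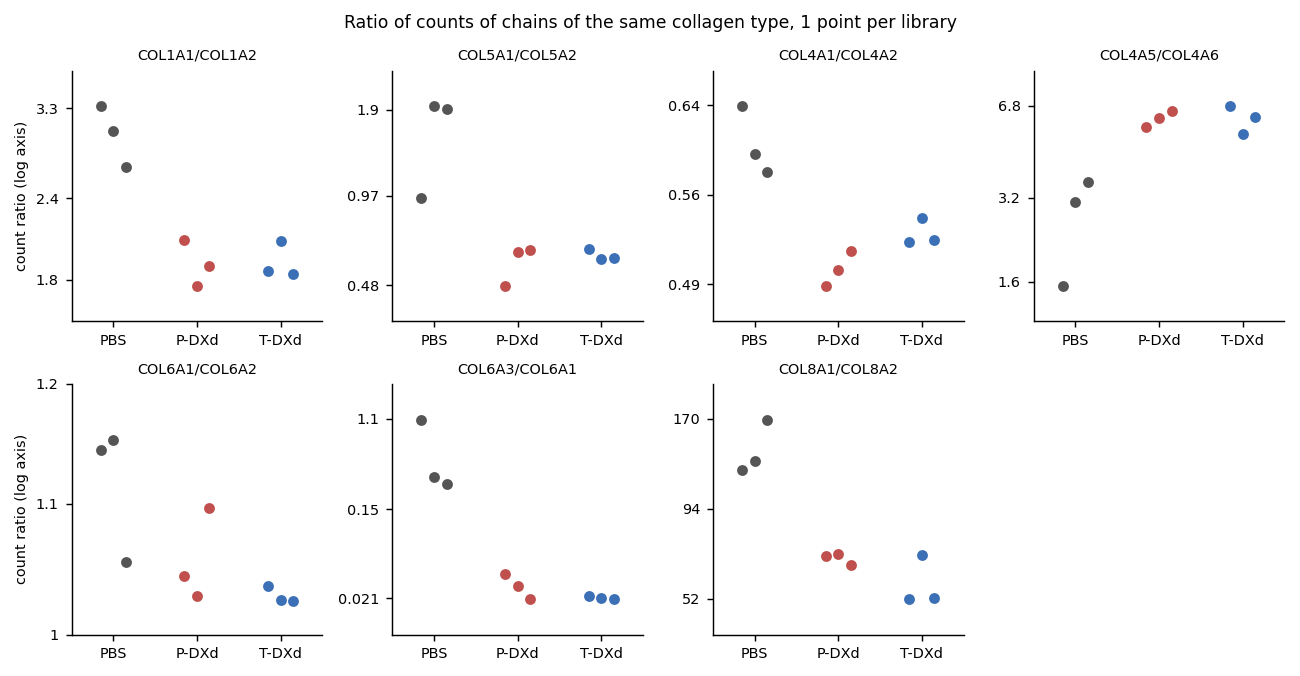
Ratio of the counts of chains of the same collagen type in each library (y axis, log scale, its own in each panel), by titled group (x axis). In all panels but COL6A1/COL6A2 the 6 treated points lie on 1 side of the 3 PBS points, and the widest shift is in COL6A3/COL6A1, from 0.260 or more to 0.0361 or less.

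By CPM per kilobase summed over the 40 genes, each library held 678 to 928 units of collagen transcript. Fibrillar genes made up 50.4%, 28.3% and 26.2% of it in the PBS libraries, 36.3%, 46.4% and 42.0% under the P-DXd title and 46.0%, 46.1% and 46.3% under the T-DXd title. Type VI made up 11.1%, 36.2% and 40.2% in PBS and 29.3% to 38.5% in treated libraries. Both shares overlapped between PBS and treated libraries, with PBS replicate 1 at the top for fibrillar and at the bottom for type VI genes. Type IV made up 17.1% to 19.4% in PBS, 14.4% to 15.9% under the P-DXd title and 12.8% to 13.3% under the T-DXd title. The transmembrane class, which includes COL17A1, made up 6.54% to 10.2% in PBS and 2.99% to 3.81% in treated libraries. The short chain and other class, which includes COL7A1, made up 5.98% to 8.51% in PBS and 1.67% to 2.52% in treated libraries. Within this class COL7A1 averaged 44.3 CPM per kilobase in PBS and 4.04 in treated libraries. COL8A1, a type VIII chain, averaged 11.3 in PBS and 12.2 in treated libraries. Multiplexins made up 0.399% to 0.643% in PBS and 1.39% to 1.72% in treated libraries. The shares of type IV, of transmembrane collagens, of multiplexins and of the short chain and other class did not overlap between PBS and treated libraries. Shares of 1 total are not independent of each other.

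**Figure D4:**
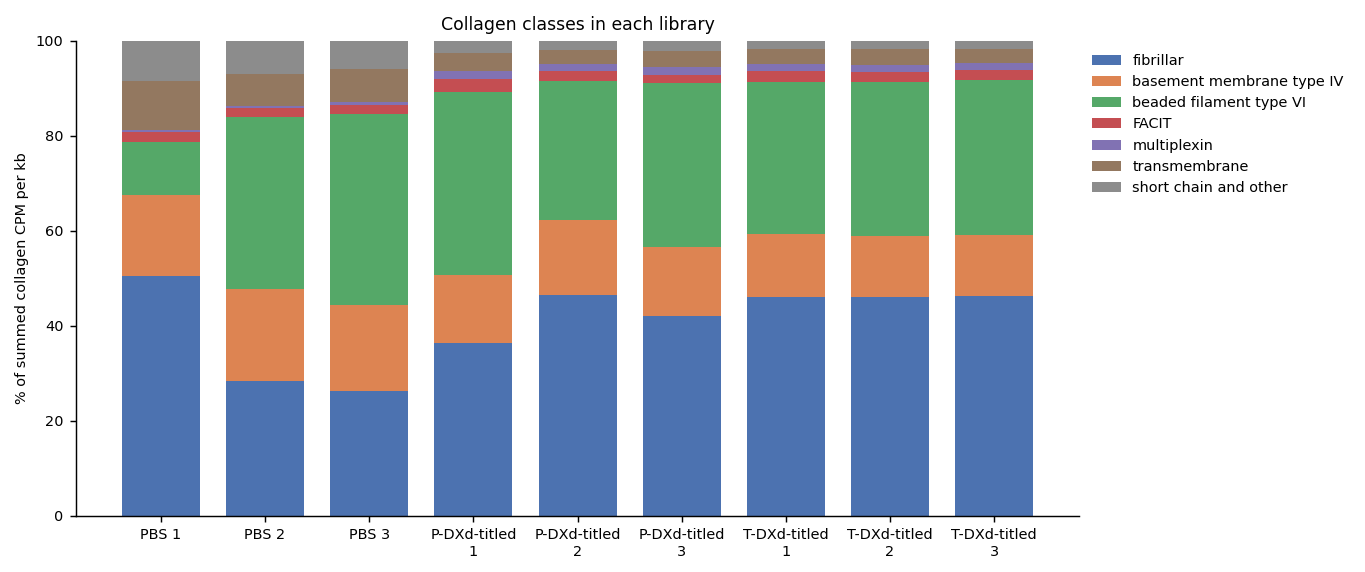
Share of summed collagen CPM per kilobase (y axis, percent, from 0 to 100) taken by each class in each of the 9 libraries (x axis). PBS replicate 1 differs from the other PBS libraries in its fibrillar (50.4%) and type VI (11.1%) shares. The share of the transmembrane class and that of the short chain and other class, which includes COL7A1, are smaller in all treated libraries.

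In order of level, COL1A1, COL6A2 and COL6A1 led both in PBS, at 163, 113 and 102 mean CPM per kilobase, and in treated libraries, at 184, 153 and 131. Their SDs in PBS were 64.3, 68.5 and 60.3, with PBS replicate 1 the highest for COL1A1 and the lowest for COL6A2 and COL6A1. The order of the means was not that of every library. In PBS replicate 3 COL6A2 and COL6A1, at 164 and 142 CPM per kilobase, were above COL1A1, at 118. In P-DXd-titled replicate 1 COL6A2, at 140, was above COL1A1, at 120. An SD across libraries does not measure the difference between genes of the same library, so this order was not tested. COL17A1 and COL7A1 stood at places 6 and 7 in PBS, with 47.6 and 44.3 mean CPM per kilobase, and at places 12 and 16 in treated libraries, with 13.3 and 4.04. COL6A3 moved from place 11 to place 19 and COL3A1 from place 10 to place 6. Of the 40 collagens, 19 had a mean over 10 CPM in PBS and 19 in treated libraries.

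Between the conjugates no collagen was called of 37 tested in edgeR, and none in DESeq2, beside 0.0273% of all genes higher and 0% lower in the P-DXd-titled group. At an unadjusted p under 0.05 in edgeR there were 2 collagens, COL6A3 and COL8A1, beside 540 of 14653 genes, or 3.69%. COL8A1 was 75.7 ± 5.5 CPM under the P-DXd title and 58.7 ± 1.67 CPM under the T-DXd title (SD, n = 3), without overlap, a log2 fold change of 0.37 with a 95% interval from 0.21 to 0.53 (adjusted p = 0.397). COL6A3 was 14.9 ± 2.82 and 11.8 ± 0.428 CPM, also without overlap, a log2 fold change of 0.35 with an interval from 0.06 to 0.63. In all 4 collagens did not overlap between the conjugates, 2 higher and 2 lower under the P-DXd title. The lower ones were COL3A1 (log2 fold change -0.42) and COL9A3 (-0.54). The share of all genes without overlap in this comparison was not computed. Of 25 collagens with a treated mean of at least 1 CPM, 24 had a 95% interval of the difference within 1 unit of 0 on the log2 scale, and the other, COL14A1, had an interval from -1.46 to 0.50. The median width of these intervals was 0.535.

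Genes that make and finish collagen were described from fixed lists, with the calls over all treated libraries. Of 14 genes for hydroxylation and glycosylation of the chains, 1 was higher, 3 were lower and 10 were not called. LEPREL1, a prolyl 3-hydroxylase, rose from 8.90, 25.9 and 21.7 CPM in PBS to between 43.7 and 53.6 CPM after treatment (a log2 fold change of 1.37, SE 0.27, adjusted p = 0.00247). PLOD2, the lysyl hydroxylase of telopeptides, fell from 253, 315 and 378 CPM to between 123 and 155 CPM (-1.26, SE 0.11, adjusted p = 3.31e-05). The treated libraries of both lay outside the PBS range. The prolyl 4-hydroxylase subunits P4HA1 and P4HA3 were also lower. Of 9 genes for folding and export only SEC23A, a coat protein of vesicles leaving the endoplasmic reticulum, was called, and it fell from 127 ± 32.4 CPM in PBS (SD, n = 3) to 76.7 ± 2.01 and 73.4 ± 1.62 CPM (-0.78, SE 0.13, adjusted p = 0.000913). SERPINH1, the collagen chaperone, was among the 8 not called.

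Of 8 procollagen processing genes 2 were higher and 2 lower. ADAMTS2, the main N-proteinase of type I procollagen, rose from 4.45 ± 1.33 CPM in PBS to 9.63 ± 1.96 CPM under the P-DXd title and 11.5 ± 1.23 CPM under the T-DXd title (SD, n = 3, log2 fold change 1.22, adjusted p = 0.00114). ADAMTS14, a related N-proteinase, fell from 2.3 ± 0.181 to 0.528 ± 0.0872 and 0.895 ± 0.366 CPM (-1.77, adjusted p = 0.000554). BMP1, the C-proteinase, was higher and its relative TLL1 lower. Of 7 crosslinking genes 1 was higher and 1 lower, both lysyl oxidases. LOXL2, which acts on type IV collagen, fell from 106, 212 and 197 CPM in PBS to between 40.5 and 59.6 CPM in treated libraries (-1.79, SE 0.18, adjusted p = 6.7e-05). LOXL1 rose from 66.9, 101 and 118 CPM to between 141 and 197 CPM (0.86, SE 0.17, adjusted p = 0.00217). Of 7 genes for uptake, turnover and receptors FAP, a surface protease of fibroblasts, was higher (0.64, SE 0.17, adjusted p = 0.00952) and the other 6 were not called. Over the 5 lists the higher and lower shares are to be read against the 14.8% and 17.1% of all genes.

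Marker genes of several cell types were also described from fixed lists, as counts of human genes. The human cells placed in the mice were PC3 cells, and reads of mouse origin may be among the counts. Which of these the marker counts came from was not tested. The sums here and in the lists further below are therefore not amounts of each cell type. The summed level of 14 listed fibroblast markers that are not collagens was 185, 125 and 131 CPM in PBS, 131, 186 and 170 CPM under the P-DXd title and 173, 206 and 191 CPM under the T-DXd title. The lowest 3 libraries by this sum, PBS replicates 2 and 3 and P-DXd-titled replicate 1, were also the lowest 3 for COL1A1, COL1A2, COL3A1 and COL14A1. They were not the lowest 3 for any other collagen. Most of the sum came from FBLN1 and SFRP2. Among the 14 markers, DCN, PDGFRA, FBLN1 and FBN1 had these same lowest 3 libraries, and the others, SFRP2 included, did not. How often genes at large share this order was not computed. Of 13 fibroblast markers tested 7 were higher over all treated libraries and 0 were lower, with POSTN, CXCL12 and FBN1 among the higher, beside the 14.8% and 17.1% of all genes called higher and lower. The most abundant, FBLN1 and SFRP2, were not called, though SFRP2, at a log2 fold change of -0.38 and an adjusted p of 0.0399, missed only the fold change minimum. FBLN1 read 46.7 to 75.9 CPM in PBS and 51.1 to 87.5 CPM in treated libraries, and SFRP2 47.6 to 67.6 and 37.1 to 56.8 CPM. None of the 14 was at 0 in any library, DCN reached 1.01 CPM at most, and THY1 and MFAP5 were under 1 CPM in all libraries. TCF21 was not listed. Their part in the collagen results was not tested.

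**Figure D5:**
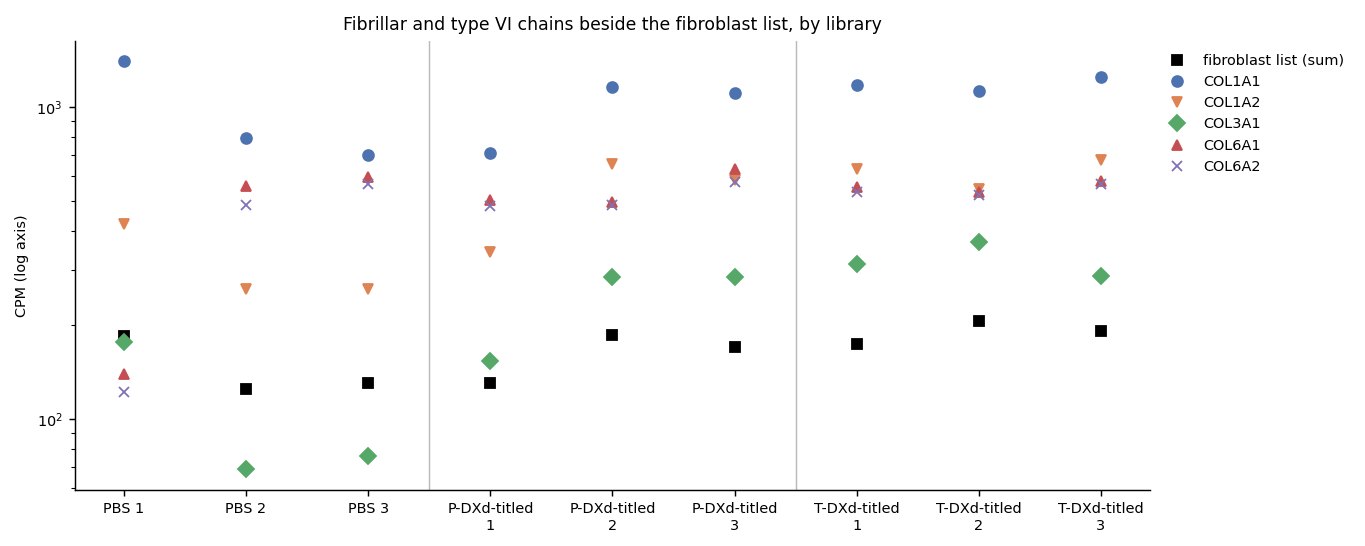
CPM (y axis, log scale) of the fibrillar genes COL1A1, COL1A2 and COL3A1, the type VI genes COL6A1 and COL6A2 and the summed fibroblast list in each library (x axis). The fibrillar genes and the fibroblast sum are lowest in PBS replicates 2 and 3 and P-DXd-titled replicate 1, whereas the type VI genes are lowest in PBS replicate 1.

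The counts that follow are also to be read against 14.8% of all genes higher and 17.1% lower. Skeletal muscle markers were higher for 12 of 12 genes, with sums of 2.45 to 52.6 CPM in PBS, 81.6 to 4982 CPM under the P-DXd title and 215 to 280 CPM under the T-DXd title. The highest sum was in P-DXd-titled replicate 2, which also held the highest level of COL4A2, COL10A1, COL14A1 and COL15A1. When this library was left out COL14A1 and COL15A1 stayed called over all treated libraries, COL15A1 lost its P-DXd-titled call (adjusted p = 0.124), and COL4A2 and COL10A1 stayed uncalled. Macrophage markers were higher for 3 and lower for 1 of 5 tested, with sums of 7.07 to 8.46 CPM in PBS and 12.3 to 22.3 CPM in treated libraries, and CD163, MRC1, C1QA, C1QC and TYROBP were not listed. Pericyte and smooth muscle markers were higher for 2 and lower for 3 of 8, with sums of 73.8 to 122 CPM in PBS and 144 to 348 CPM in treated libraries. DES of that list, which skeletal muscle also expresses, read 1.05 to 7.21 CPM in PBS and 7.40 to 226 CPM in treated libraries, the highest in P-DXd-titled replicate 2, where the sum was 348 CPM. Endothelial markers were higher for 1 of 6, with sums of 5.02 to 11.3 and 6.58 to 11.8 CPM, and PECAM1 and EMCN were not listed. Adipocyte markers were higher for 1 of 3 tested, with sums of 1.09 to 1.27 CPM in PBS and 1.77 to 3.79 CPM in treated libraries. The epithelial list, at 2697 to 3485 CPM in PBS and 4324 to 4853 CPM in treated libraries, was the highest sum in the PBS and T-DXd-titled groups. Its markers were higher for 2 of 6, KRT8 and KRT18, and lower for 0. KRT7, the most abundant of them, was not called (log2 fold change -0.024, adjusted p = 0.830). The part of these cell types in the collagen results was not tested.

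Position and length were described last. The listed spans of the collagen genes ran from 17.3 to 492 kilobases, and across the 38 tested genes the Spearman correlation of span with the log2 fold change over all treated libraries was -0.0581. This is given as a description, since genes of 1 set of libraries are not independent replicates. COL3A1 and COL5A2, both called higher, lie tail to tail on chromosome 2 as listed, 19149 bases apart. COL6A1 and COL6A2 lie in tandem on chromosome 21, and COL6A5 and COL6A6 in tandem on chromosome 3.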

How the data were processed

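RNA from 9 PC3 xenografts was sequenced as TruSeq mRNA libraries. For the xenografts the study points to its general RNA-Seq methods, where reads were trimmed (Cutadapt) and aligned (STAR) and the authors made the deposited raw counts per gene with featureCounts. GRCh38 is the build in the methods, yet 224 genes in the tables have an end past the last base of their GRCh38 chromosome, so gene coordinates are those in the tables, whose build is not named there. Whether mouse reads were removed or strand was used is not given in the sources used here. The 2 tables hold 16098 and 16114 genes, 16008 in both, with identical PBS counts, and 0 columns of per-sample values were left unused.

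The members and lists were chosen with earlier results of these data known. Groups were compared in edgeR 4.0.16 under R 4.3.3 (TMM, filterByExpr, two-sided quasi-likelihood F test, Benjamini-Hochberg adjustment over all genes tested), calling genes with an adjusted p of at most 0.05 and a 1.5-fold change or more, the thresholds that the study applied with DESeq2. Comparisons of 3 with 3 libraries were fitted on those libraries and all treated libraries against PBS on 9. The 95% intervals are the log2 fold change plus or minus the t quantile times the SE, and cover 1 gene at a time. CPM were scaled over all 9 libraries, and CPM per kilobase used the length of the GENCODE v44 canonical transcript. Chain ratios used counts plus 0.5 and scipy 1.17.1. Nothing says whether libraries of a group were processed apart, so p-values measure the spread between these tumors and libraries. Counts of replicates differed by more than sampling noise (chi-square per gene from 17.1 to 387), so no library was a duplicate.

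Values in each library were given for every collagen called over all treated libraries, the collagen of highest CPM per kilobase in each class, those called in 1 conjugate only and both chains of each pair. Pathway genes named with values were the 2 of each list with the largest absolute log2 fold change among those called. Genes named beyond this rule were chosen after their values were seen. Alternatives were leaving out each library in turn, DESeq2 1.42.0, RLE size factors, a minimum of 10 counts per library or no filter, calls without the fold change minimum, a single fit of 9 libraries, the digit of the animal code in the titles as a block, and a pseudocount of 5 in the ratios.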

Additional observations from a re-analysis of the deposited data

How the results depend on the processing

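The count of collagens called in P-DXd-titled xenografts, 9 (3 higher, 6 lower), was 14 (7 higher, 7 lower) under DESeq2 and 14 (7 higher, 7 lower) with all 9 libraries in 1 fit, where the 3 further libraries add to the estimate of the spread. In the other comparisons the counts stayed within 1.5 times their value under all alternatives run. Without 1 library the counts ran from 7 to 13 in P-DXd-titled, 10 to 17 in T-DXd-titled and 11 to 18 in all treated libraries, and were 0 between conjugates. The block on a digit of the animal code gave 8, 12, 15 and 0 called collagens. The labels do not say that this digit pairs animals, and it changed the call of COL15A1 in P-DXd-titled and of COL6A6 and COL11A2 in T-DXd-titled xenografts. No direction of a called collagen was reversed.

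Without 1 library the log2 chain ratio differences ranged from -0.73 to -0.58 for COL1A1/COL1A2, -1.71 to -1.19 for COL5A1/COL5A2, -0.26 to -0.19 for COL4A1/COL4A2, 0.87 to 1.48 for COL4A5/COL4A6, -0.14 to -0.075 for COL6A1/COL6A2, -4.57 to -3.55 for COL6A3/COL6A1 and -1.24 to -1.01 for COL8A1/COL8A2. With 2 PBS libraries the exact permutation test cannot give a p below 0.0714, so those settings say nothing about stability. Collagens called in no comparison with PBS were called 15 times under the alternatives, out of 866 combinations of collagen, comparison and setting. Depth limits the collagens under 1 CPM, whose intervals are wide.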
